A study of Homo sapiens with 12 samples.

Results

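The miRNAs described are hsa-miR-21, hsa-miR-221 and hsa-miR-222, 3 of the 851 human miRNA names in the deposited value table, taken by name and not by any measured value. They were measured on 12 one-colour Agilent human miRNA arrays of the human osteosarcoma line Saos-2 and of Sa/CD99, which are Saos-2 cells carrying a stably transfected CD99 gene, which codes for a membrane glycoprotein. The study asked how the miRNA profile of Sa/CD99 differed from that of the parental line before osteogenic medium (day 0) and after 7 and 14 days in it, so that each comparison with day 0 is also one between media. There were 6 groups of 2 arrays: Saos-2 at day 0, day 7 and day 14, and Sa/CD99 at the same days. The Sa/CD99 arrays of each day came from clone 22 and clone 36, obtained by calcium-phosphate transfection and neomycin selection, so that each array of that group stood for 1 clone. The Saos-2 arrays were untransfected parental cells, numbered 1 and 2, and the labels used here do not say whether they came from separate cultures. All p-values therefore measure only the spread between these samples, which may be technical, and 2 arrays per group limit the precision.

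miR-21, miR-221 and miR-222 are known as oncogenic miRNAs that are high in many tumours. A mature miRNA guides silencing complexes to messenger RNAs that pair with its seed, the bases near its 5′ end, and lowers their output. miR-21 is known to restrain the tumour suppressor PDCD4, and miR-221 and miR-222, which are made from neighbouring hairpins, are known to restrain the cell cycle inhibitor p27.

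The mature sequences are shown because the seed decides which messenger RNAs a miRNA can pair with, and because miR-221 and miR-222 have the same seed. All 3 members were matched by name to RefSeq (GRCh38.p14), each as the arm that the array lists without a star, and the capitals mark the seed, bases 2 to 8.
hsa-miR-21-5p: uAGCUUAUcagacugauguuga
hsa-miR-221-3p: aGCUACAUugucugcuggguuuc
hsa-miR-222-3p: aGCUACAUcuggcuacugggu
hsa-miR-590-5p: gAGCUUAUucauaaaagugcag

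hsa-miR-221-3p and hsa-miR-222-3p shared the first 8 bases from the 5′ end and 11 of the 21 positions of the shorter sequence. Among the other miRNAs of the array, hsa-miR-590-5p had the seed of hsa-miR-21-5p, and it was detected on 1 of the 12 arrays. MIR221 and MIR222 lie 748 bases apart on the minus strand of chromosome X, with the mature miR-221-3p at chrX:45746180-45746202 and miR-222-3p at chrX:45747036-45747056, inside the span of the host gene MIR222HG. MIR21 lies on the plus strand of chromosome 17, with its mature 5′ arm at chr17:59841273-59841294, inside the span of VMP1. The other arms, listed as hsa-miR-21*, hsa-miR-221* and hsa-miR-222*, were detected on 0 of the 12 arrays.

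The deposited records disagreed on which array was which sample. Detection calls of every table column (12 in all) coincided with those of exactly 1 scanner array, at 847 of 847 shared names, and for 0 columns was that array filed under the same sample. Values here are given under the column labels of the value table, since the members and groups were defined there, with the arrays as filed beside them. CD99 itself was not measured on these arrays. As filed, replicates of a group could differ widely: hsa-miR-923, a ribosomal RNA fragment since withdrawn as a miRNA, held 62.24% and 3.5% of the signal of the Sa/CD99 arrays of day 0 and 6.55% and 60.17% at day 7. Deviations from the group means correlated as filed at -0.902 for Sa/CD99 and -0.615 for Saos-2 between days 0 and 7, at 0.194 and 0.056 between days 0 and 14, and at -0.058 and -0.0486 between days 7 and 14. In the value table the same pairs of days gave 0.0338 to 0.203. Which record names the cells correctly was not tested.

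Total signal separated day 0 from the later days under the table's labels and split the Sa/CD99 arrays as filed. Under the table's labels, the 4 arrays of day 0 had a summed signal of detected human miRNAs of 8523 to 11302 and 133 to 158 detected miRNAs. The 8 arrays of days 7 and 14 had 25162 to 62172 and 158 to 229. Most of this gap lay in hsa-miR-923, which held 2.13% to 6.55% of the signal on the day 0 arrays and 48.47% to 66.9% on the others. Without hsa-miR-923 the sums were 8106 to 11061 and 9501 to 25527, and overlapped. As filed, the same 4 dim arrays were all Sa/CD99, while the other 2 Sa/CD99 arrays, of day 0 and day 7, had 25162 and 56491.

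Each of the 2 slides held 6 arrays. Under the table's labels slide 1 held both cell types at day 0 and Saos-2 at day 7, and slide 2 held Sa/CD99 at day 7 and both cell types at day 14. The cell types at day 0 and at day 14, and days 0 and 7 of Saos-2, were thus compared within a slide, and the other comparisons lay across slides. As filed, slide 1 held the Sa/CD99 arrays and slide 2 the Saos-2 arrays, and the effects of slide and of cell type cannot be told apart in that record. The part of total signal, hsa-miR-923 and slide in the results below was not tested unless a value is given.

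**Figure D1:**
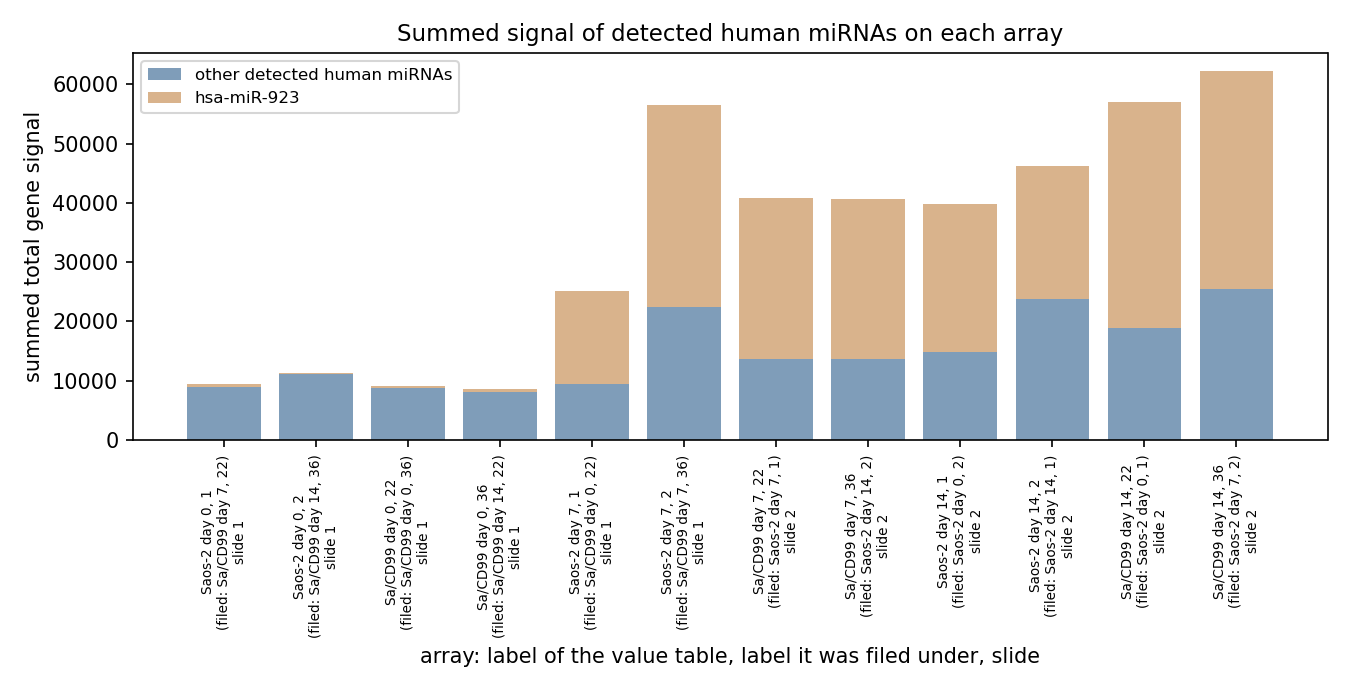
Summed total gene signal of detected human miRNAs on each of the 12 arrays (y axis, linear scanner units), stacked as hsa-miR-923 and all others, with each array's label in the value table, its filed label and its slide below the bar. The 4 arrays labelled day 0 by the value table reach 8523 to 11302, and the other 8 reach 25162 to 62172.

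The cell type label was checked on lists of marker miRNAs. Of 6 miRNAs typical of mesenchymal and bone cells, 5 were detected on all 12 arrays, and miR-143 was detected on none. hsa-miR-214 stood at 5.93 to 8.19 on the log2 scale of the value table and hsa-miR-199a-5p at 5.00 to 6.22. The liver marker hsa-miR-122, all 3 muscle markers, all 4 blood markers and all 3 epithelial markers were undetected on every array. These markers do not tell Sa/CD99 from Saos-2.

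The log2 values of the table were set by rank. Its 10212 values took 255 distinct values to 4 decimals, and 2100 of the 2116 detected values recurred in another column. On 10 of the 12 columns every detected value did so, as quantile normalization leaves it, and within each column the order of the detected miRNAs was that of the scanner's total gene signal. Undetected miRNAs stood at the column minimum, between -3.32 and -3.00. A difference between columns is therefore a difference in the place of a miRNA among the others on its array.

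hsa-miR-21 was among the brightest miRNAs of each array. In Saos-2 its log2 value was 8.96 and 9.42 at day 0, 9.61 and 10.98 at day 7, and 8.96 and 10.54 at day 14. In Sa/CD99 clones 22 and 36 it was 8.96 and 8.69 at day 0, 9.61 and 8.69 at day 7, and 8.80 and 8.55 at day 14. The 2 highest arrays were Saos-2 replicate 2 at days 7 and 14. Saos-2 replicate 1 met the highest Sa/CD99 value at days 0 and 7, so that the cell types touched at those days. At day 14 they stood apart by 8.96 against 8.80. Without scaling they overlapped at that day, with a total gene signal of 644.4 and 1930.6 in Saos-2 and 720.2 and 857.2 in Sa/CD99. How many of all miRNAs stood apart was not counted.

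Group means of hsa-miR-21 were, from high to low, 10.30 ± 0.97 (SD, n = 2) in Saos-2 at day 7, 9.75 ± 1.12 in Saos-2 at day 14, 9.19 ± 0.33 in Saos-2 at day 0, 9.15 ± 0.65 in Sa/CD99 at day 7, 8.82 ± 0.19 in Sa/CD99 at day 0 and 8.68 ± 0.18 in Sa/CD99 at day 14. Each step between neighbours in this order was smaller than the larger of their SDs. Its rank by signal was 2 to 10 with a median of 7, or the upper 0.9% to 5.9% of the detected miRNAs. These are ranks of signal, which also depends on the probe, and not of abundance, and they belong to the arrays whichever labels are used.

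hsa-miR-221 had higher normalized values at day 0 than later under the table's labels, while its unscaled signal overlapped between these days. In Saos-2 the log2 value was 6.85 and 6.97 at day 0, 5.64 and 5.34 at day 7, and 5.16 and 5.19 at day 14. In Sa/CD99 it was 6.80 and 6.91 at day 0, 5.66 and 6.05 at day 7, and 5.19 and 5.05 at day 14. The 4 values of day 0 lay above the 8 later ones, and those of day 7 above those of day 14. The cell types overlapped at days 0 and 14. At day 7 they were set apart only by 5.66 against 5.64. Without scaling they overlapped at that day, with a total gene signal of 64.4 and 69.6 in Sa/CD99 and 38.1 and 77.6 in Saos-2.

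The order of the hsa-miR-221 group means was the same in that sense: 6.91 ± 0.08 (SD, n = 2) in Saos-2 and 6.86 ± 0.08 in Sa/CD99 at day 0, 5.86 ± 0.28 in Sa/CD99 and 5.49 ± 0.21 in Saos-2 at day 7, and 5.18 ± 0.02 in Saos-2 and 5.12 ± 0.10 in Sa/CD99 at day 14. Within day 0 and within day 14 the neighbours differed by less than the larger SD. Its rank went from 27 to 30 at day 0 to 42 to 56 at day 7 and 59 to 63 at day 14. Counted only among the 100 miRNAs detected on all 12 arrays, the ranks were 27 to 30, 34 to 44 and 39 to 48, so that the fall in rank was smaller but present when the same miRNAs were ranked on each array.

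hsa-miR-222 was dim. In Saos-2 its log2 value was 4.00 and 4.55 at day 0, it was undetected on replicate 1 (-3.16, the column minimum) and -0.12 on replicate 2 at day 7, and it was -1.08 and -0.21 at day 14. In Sa/CD99 it was 3.74 and 3.65 at day 0, 0.96 and 0.89 at day 7, and -0.66 and -1.13 at day 14. The day 0 values lay above all later ones, with Saos-2 above Sa/CD99 at day 0, and the cell types overlapped at day 14. At day 7 the Sa/CD99 values of the table lay above both Saos-2 arrays. Without scaling this order turned against the Saos-2 array that detected it. The total gene signal was 4.8 and 4.7 in Sa/CD99 and 7.7 on Saos-2 replicate 2. How many of all miRNAs separated in this way was not counted.

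Group means of hsa-miR-222 were 4.28 ± 0.39 (SD, n = 2) in Saos-2 and 3.70 ± 0.06 in Sa/CD99 at day 0, 0.92 ± 0.05 in Sa/CD99 at day 7, -0.64 ± 0.62 in Saos-2 and -0.90 ± 0.33 in Sa/CD99 at day 14, and -1.64 ± 2.15 in Saos-2 at day 7, where the mean rests on the column minimum for 1 of 2 arrays. The last 3 in this order did not differ beyond their spread. It ranked 77 to 99 at day 0, 146 to 161 on the 3 arrays of day 7 that detected it and 166 to 189 at day 14.

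The probes behind these values differed in how well they were measured. hsa-miR-21 and hsa-miR-221 were each read by 2 probes of 8 spots, with 96 of 96 spots of each probe well above background over the 12 arrays and no saturated spot. The brighter probe was 3.11 to 3.92 times the dimmer one for hsa-miR-21 and 3.93 to 4.90 times for hsa-miR-221, a nearly constant ratio. Of the probes for hsa-miR-222, one had 63 of 96 spots well above background and the other 0 of 96, so that its level rests on a single probe near background.

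**Figure D2:**
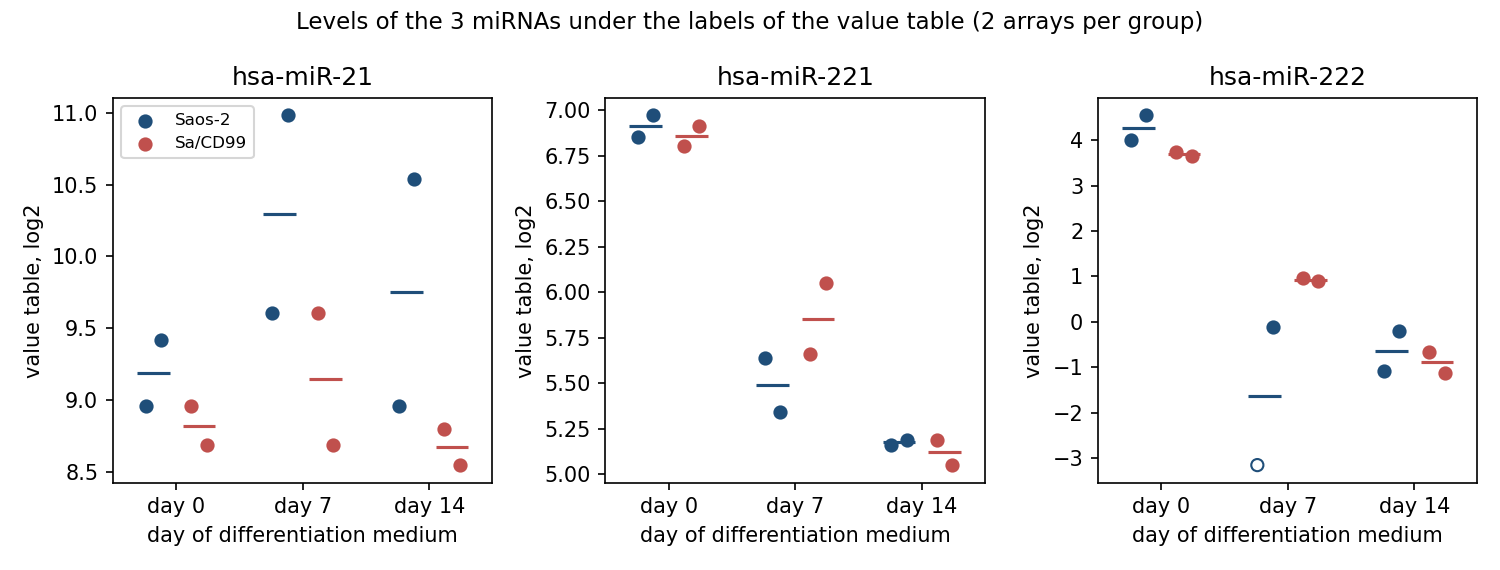
Log2 value in the deposited table (y axis) of hsa-miR-21, hsa-miR-221 and hsa-miR-222 by day, with 1 point per array, Saos-2 in blue, Sa/CD99 in red and a line at each group mean. The open point is the undetected value of -3.16. hsa-miR-221 runs from 6.80 to 6.97 at day 0 and from 5.05 to 6.05 later.

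**Figure D3:**
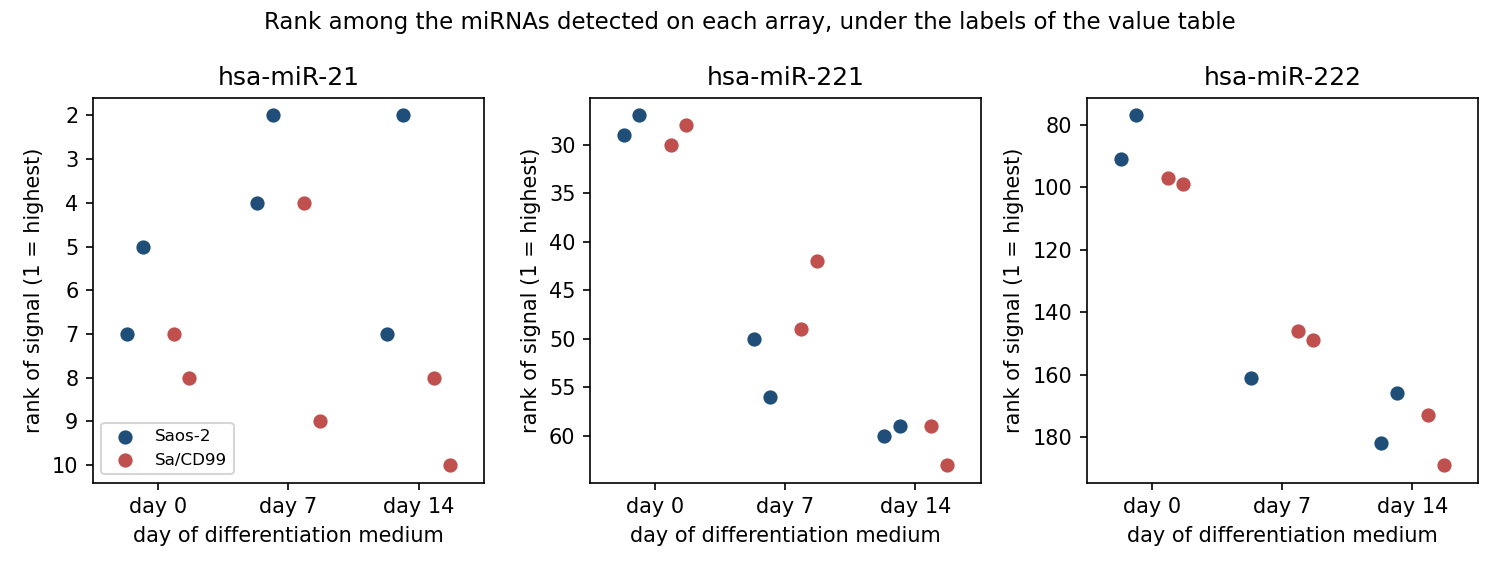
Rank of each miRNA by signal among the human miRNAs detected on the same array (y axis, 1 is the brightest), by day and cell type under the labels of the value table, with 1 point per array that detected it. hsa-miR-21 keeps ranks 2 to 10, and hsa-miR-221 runs from 27 at day 0 to 63 at day 14.

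The first question was whether Sa/CD99 differed from Saos-2 at each day, with a miRNA called, after the study's methods, at an unadjusted limma p of at most 0.01 together with the fold change minimum stated there, in either direction. At day 0, 0 of the 3 members were called, against 6 of 219 tested miRNAs (2.74%), 1 of them higher in Sa/CD99, where RMA under the same labels gave 6 higher of 11. hsa-miR-21 differed by -0.36 ± 0.65 (SE), hsa-miR-221 by -0.06 ± 0.30 and hsa-miR-222 by -0.58 ± 0.86, each with a limma adjusted p of 1. Under the same labels hsa-miR-21 was -0.64 unscaled, hsa-miR-221 turned to 0.08 at the 75th percentile of the scanner signal, and hsa-miR-222 was -0.92 after RMA, none of them called.

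At day 7, 0 of the 3 members were called, against 7 of 219 (3.2%). hsa-miR-21 differed by -1.14 ± 0.65 (limma adjusted p = 0.708), with a 95% interval from -2.65 to 0.36, and by -1.83 without Saos-2 replicate 1 and -0.46 without Saos-2 replicate 2 of that day. After RMA of the scanner signals it was -0.74 under the same labels. hsa-miR-221 differed by 0.37 ± 0.30 (limma adjusted p = 0.714). hsa-miR-222 differed by 2.56 ± 0.86 (limma adjusted p = 0.434), with a 95% interval from 0.58 to 4.55, in the value table the only one of the members' intervals at single days that left out 0. That value rested on the undetected array: without Saos-2 replicate 1 of day 7 it was 1.05. Without replicate 2, which leaves the undetected array alone, hsa-miR-222 was 4.08, a value set by the column minimum and not a measured fold. From the scanner signals under the same labels hsa-miR-222 was 0.28 after RMA and 0.66 unscaled. It was 1.19 at the 75th percentile and 1.39 scaled to the total without hsa-miR-923, and none of these was called. All but the RMA value set the undetected array to the lowest detected signal. Renewed quantile normalization of the table called hsa-miR-222 at 2.21 (limma adjusted p = 0.239), with the undetected array included. This comparison lay across slides.

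At day 14, 0 of the 3 members were called, against 20 of 219 (9.13%), 15 of them higher in Sa/CD99. With the fit restricted to the 100 miRNAs detected on all 12 arrays, 1 of 7 calls was higher. Among all 219 under the same labels it was 15 of 16 at the 75th percentile and 11 of 11 unscaled. hsa-miR-21 differed by -1.08 ± 0.65 (limma adjusted p = 0.377), a value of -1.87 without Saos-2 replicate 1 and -0.28 without Saos-2 replicate 2 of that day. Under the same labels it was -0.69 after centring, -0.51 unscaled and -0.26 at the 75th percentile, none of them called. hsa-miR-221 differed by -0.05 ± 0.30 (limma adjusted p = 0.94) and hsa-miR-222 by -0.25 ± 0.86 (limma adjusted p = 0.898). At the 75th percentile under the same labels these 2 were 0.20 and 0.17, and they turned to 0.33 and 0.13 when each column was centred on the miRNAs detected on all arrays, a step that moved the median of all tested miRNAs from 0 to 0.39.

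Over all days, 0 of the 3 members were called at an adjusted p of at most 0.05, against 6 of 219 (2.74%). hsa-miR-21 had the smallest p of the members, with a value of -0.86 ± 0.38 (limma adjusted p = 0.343), with an interval from -1.73 to 0.01, and was -0.45 at the 75th percentile under the same labels. Its Sa/CD99 group mean was the lower one at all 3 days. hsa-miR-221 differed by 0.09 ± 0.17 (limma adjusted p = 0.82) and hsa-miR-222 by 0.58 ± 0.50 (limma adjusted p = 0.601). Neither kept its sign under the same labels: hsa-miR-221 was -0.01 unscaled and -0.06 with slide as a block, and hsa-miR-222 was -0.20 after RMA, -0.10 unscaled and -0.41 with slide as a block. Without Saos-2 replicate 1 of day 7, hsa-miR-222 was 0.07. Without replicate 2 it was 1.08, with the undetected array again the only one of its group, so that this is not a measured fold.

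With the arrays as filed, 0 of the 3 members were called at day 0 (5 of 213, 2.35%), at day 7 (0 of 213, 0%, with 8 at an unadjusted limma p of at most 0.05) and at day 14 (15 of 213, 7.04%). Over all days, 1 of the 3 was called, against 93 of 213 (43.7%), 40 of them higher in Sa/CD99, where the 75th percentile gave 10 higher of 61 and the unscaled signal 6 of 54. That was hsa-miR-221, higher in Sa/CD99 by 1.29 ± 0.42 (limma adjusted p = 0.0373), while hsa-miR-222 differed by 0.99 ± 0.40 (limma adjusted p = 0.0722) and hsa-miR-21 differed by 0.19 ± 0.39 (limma adjusted p = 0.675). These values are those after RMA: as filed, hsa-miR-21 turned to -0.30 at the 75th percentile and -0.67 unscaled over all days, and at day 0 it was 0.27 after RMA, -0.44 at the 75th percentile and -0.71 unscaled. hsa-miR-222 likewise turned from 0.52 to -0.46 and -0.26 at day 0. None of these was called. In this record the cell types lay on different slides. With total gene signal scaled to the 75th percentile, hsa-miR-221 differed by 0.59 (limma adjusted p = 0.172) over all days as filed, and unscaled by 0.23 (limma adjusted p = 0.584).

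The second question was how the members moved over the days in each cell type. In Saos-2 from day 0 to day 7, 2 of the 3 members were called at an adjusted p of at most 0.05, against 80 of 219 (36.5%), so that calls were frequent among all miRNAs. hsa-miR-221 fell by 1.43 ± 0.30 on the log2 scale (limma adjusted p = 0.00623), and both arrays of day 7 lay below both of day 0. hsa-miR-222 fell by 5.91 ± 0.86 (limma adjusted p = 0.000943), a change of -4.39 without the undetected array, and hsa-miR-21 differed by 1.11 ± 0.65 (limma adjusted p = 0.191), or by 1.79 without replicate 1 and 0.43 without replicate 2 of day 7, and by 0.59 after RMA. From the scanner signals under the same labels the change of hsa-miR-222 was smaller, each time still called. It was -2.03 after RMA, -2.55 at the 75th percentile and -2.98 scaled to the total without hsa-miR-923. All of these include the undetected array, which the latter 2 set to the lowest detected signal. The Saos-2 array that detected it at day 7 had an unscaled signal of 7.7, between the 6.8 and 15.8 of day 0. This comparison lay within slide 1.

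In Saos-2 from day 0 to day 14, 2 of the 3 members were called, against 122 of 219 (55.7%). hsa-miR-221 fell by 1.73 ± 0.30 (limma adjusted p = 0.00221) and hsa-miR-222 fell by 4.91 ± 0.86 (limma adjusted p = 0.00241). From the scanner signals under the same labels, hsa-miR-222 changed by -2.10 after RMA and -2.26 scaled to the total without hsa-miR-923, both called, and by -1.84 at the 75th percentile, not called (limma adjusted p = 0.0632). hsa-miR-21 differed by 0.56 ± 0.65 (limma adjusted p = 0.469), a value that was 1.36 without Saos-2 replicate 1 of day 14 and turned to -0.23 without replicate 2. Under the same labels it was 0.34 after RMA, 1.29 after centring and 1.38 unscaled, none of them called.

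In Sa/CD99 from day 0 to day 7, 2 of the 3 members were called, against 70 of 219 (32%). hsa-miR-221 fell by 1.0 ± 0.30 (limma adjusted p = 0.0361) and hsa-miR-222 fell by 2.77 ± 0.86 (limma adjusted p = 0.0407). Both calls were lost when any 1 of the 4 arrays, clone 22 or clone 36 at day 0 or day 7, was left out, with values from -1.20 to -0.81 and limma adjusted p from 0.062 to 0.17 for hsa-miR-221, and values from -2.82 to -2.72 and limma adjusted p from 0.108 to 0.142 for hsa-miR-222. From the scanner signals under the same labels hsa-miR-222 changed by -0.84 after RMA, -0.87 at the 75th percentile and -0.94 scaled to the total without hsa-miR-923, none called. hsa-miR-21 differed by 0.33 ± 0.65 (limma adjusted p = 0.768), or by -0.13 without clone 22 and 0.79 without clone 36 of day 7, and was 0.80 after centring and 1.08 unscaled.

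In Sa/CD99 from day 0 to day 14, 2 of the 3 members were called, against 163 of 219 (74.4%). hsa-miR-221 fell by 1.73 ± 0.30 (limma adjusted p = 0.00151) and hsa-miR-222 fell by 4.59 ± 0.86 (limma adjusted p = 0.00219). From the scanner signals under the same labels, hsa-miR-222 changed by -1.15 after RMA and -1.91 scaled to the total without hsa-miR-923, both called, and by -1.18 at the 75th percentile, not called (limma adjusted p = 0.182). hsa-miR-21 differed by -0.15 ± 0.65 (limma adjusted p = 0.835), which turned to 0.97 after centring, 0.87 at the 75th percentile and 1.52 unscaled, none of them called. The comparisons of a cell type share their day 0 arrays, so that they are not independent of each other. In these bulk samples, fewer cells holding a miRNA and less of it per cell cannot be told apart.

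Apart from Saos-2 at day 7, these changes lay across slides. A fit of cell type, day and slide without interaction, chosen after seeing the data, gave hsa-miR-221 -1.42 at day 7 (limma adjusted p = 0.00284) and -2.16 at day 14 (limma adjusted p = 0.00286) for both cell types together. Day 7 was the only day with the cell types on different slides, so that the slide term rests on the difference between them at that day, and the fit takes the difference between the cell types as the same on every day. For hsa-miR-222 that difference rested on the undetected array, and no value of this fit is given for its day changes.

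The falls depended on the normalization between arrays. Without any scaling, the total gene signal of hsa-miR-221 was 68.9 to 106.7 at day 0 and 38.1 to 77.6 later under the table's labels, and the ranges overlapped. That of hsa-miR-222 was 5.4 to 15.8 at day 0 and 2.5 to 7.7 later where it was detected, again with overlap. hsa-miR-21 ran the other way, from 244.3 to 566.2 at day 0 and from 458.5 to 2101.8 later, also with overlap.

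On this unscaled scale, an alternative added after seeing the data, none of the 12 changes of the members over days was called. hsa-miR-221 changed by -0.66 and -0.62 in Saos-2 and by -0.07 and -0.37 in Sa/CD99 at days 7 and 14, with limma adjusted p from 0.395 to 1. hsa-miR-222 changed by -1.79, -1.34, -0.25 and -0.53 in the same order, with limma adjusted p from 0.194 to 1. For the first of these the undetected array was set to the lowest detected signal. The median over all 219 miRNAs was then 0.28, 0.54, 0.32 and 0.77, where the value table had -0.61, -0.47, -0.20 and -0.64, so that the falls of hsa-miR-221 and hsa-miR-222 were falls against the other miRNAs of the array. Among the 100 miRNAs detected on every array, hsa-miR-221 among them, the table's medians were -0.97, -1.15, -0.81 and -1.57. The table's changes of hsa-miR-221, -1.43, -1.73, -1.0 and -1.73, lay below these too, but closer to them than to the medians of all 219.

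Calls among all miRNAs shifted with the scaling as well. In the value table, 47 of the 80 calls in Saos-2 at day 7 were higher than at day 0, 63 of 122 at day 14, and 46 of 70 and 81 of 163 in Sa/CD99. After centring these were 48 of 69, 69 of 97, 46 of 59 and 86 of 118, and without scaling 51 of 57, 64 of 72, 48 of 52 and 87 of 99. At the 75th percentile under the same labels they were 51 of 65, 64 of 82, 50 of 62 and 89 of 121, after scaling to the total without hsa-miR-923 51 of 69, 69 of 108, 49 of 60 and 86 of 151, and after RMA 54 of 103, 65 of 129, 47 of 89 and 80 of 158. With the fit to the table restricted to the 100 miRNAs detected on all 12 arrays, most calls were lower, with 10 of 39, 11 of 64, 8 of 31 and 11 of 82 higher. Centring ended the hsa-miR-221 calls at -0.93 (limma adjusted p = 0.0574) in Saos-2 at day 7 and at -0.53 (limma adjusted p = 0.273) and -0.61 (limma adjusted p = 0.138) in Sa/CD99 at days 7 and 14. It also ended that of hsa-miR-222 in Sa/CD99 at day 7, at -2.30 (limma adjusted p = 0.106). In Saos-2 at day 14 it left hsa-miR-221 called at -1.0 (limma adjusted p = 0.0319). At the 75th percentile under the same labels hsa-miR-221 was called at -0.97 and -1.13 in Saos-2 at days 7 and 14 and at -1.01 in Sa/CD99 at day 14, and in Sa/CD99 at day 7 it was -0.69 (limma adjusted p = 0.167). After RMA under the same labels every fall of hsa-miR-221 was called and larger. The values were -1.77 and -2.07 in Saos-2 and -1.35 and -2.21 in Sa/CD99. Renewed quantile normalization also called each, at -1.39, -1.66, -0.96 and -1.65 in the same order. Scaled to the total without hsa-miR-923 they were -1.23, -1.55, -0.76 and -1.75, with Sa/CD99 at day 7 not called (limma adjusted p = 0.0872).

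**Figure D4:**
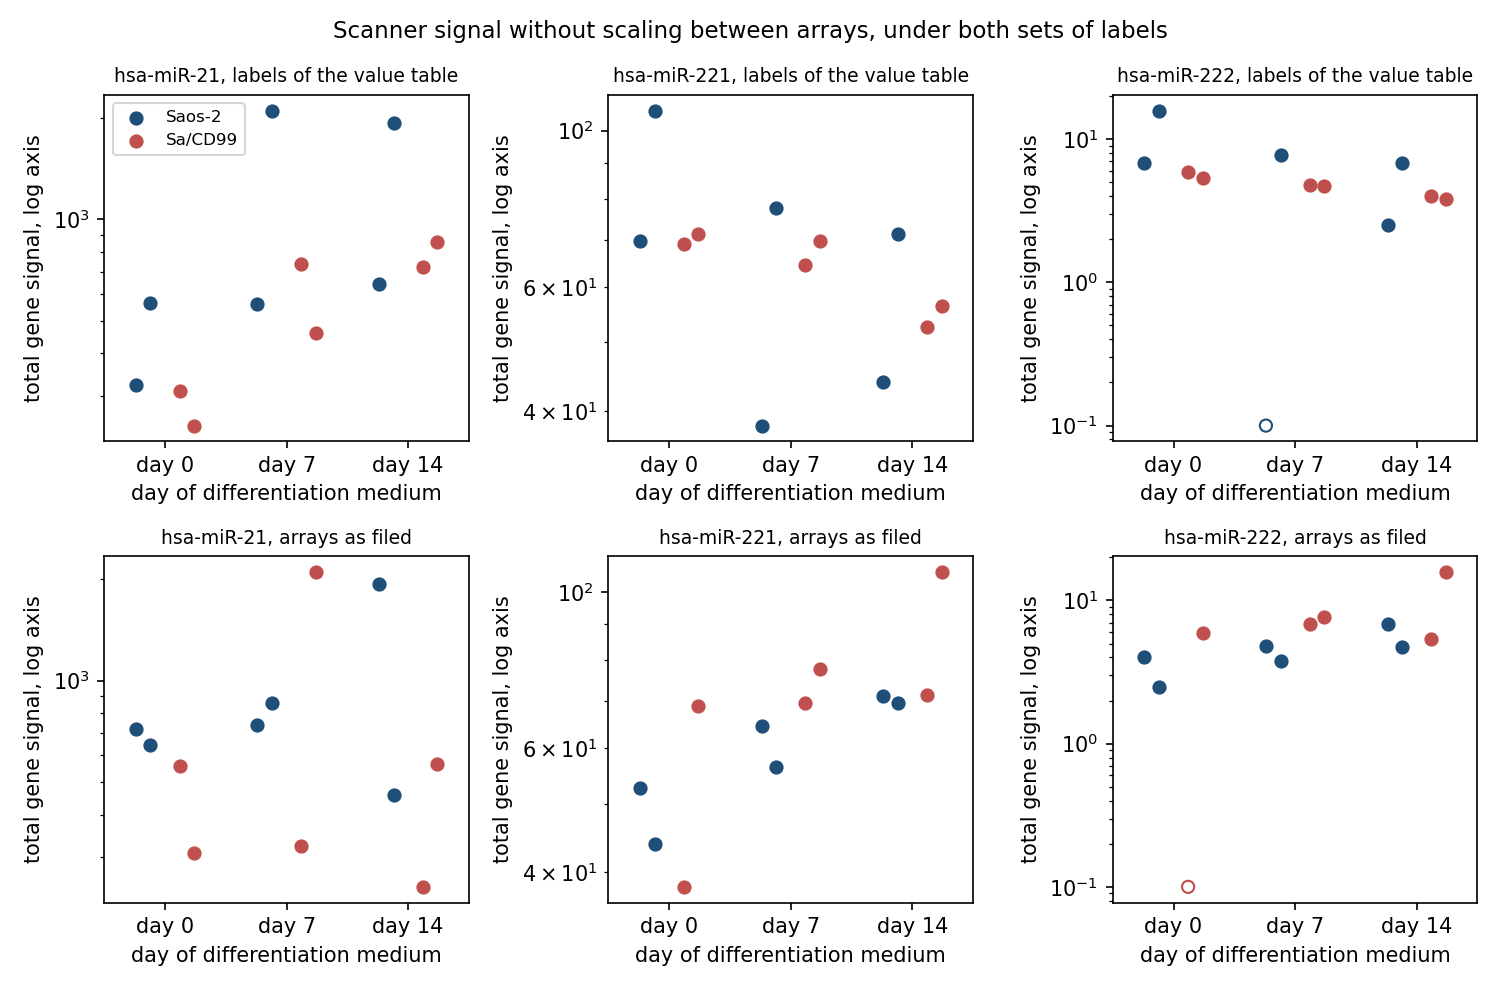
Total gene signal of each miRNA without scaling between arrays (y axis, log axis), by day and cell type under the labels of the value table (upper row) and as the arrays were filed (lower row), with 1 point per array and open points where it was undetected. For hsa-miR-221 the values run from 38.1 to 106.7 in either row, and day 0 overlaps with later days in both.

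As filed, 0 of the 3 members were called over days in either cell type. The calls among all miRNAs were 0 of 213 (0%) in each of the 4 comparisons, with 0 and 4 miRNAs at an unadjusted limma p of at most 0.05 in Saos-2 at days 7 and 14 and 1 and 12 in Sa/CD99. After RMA, hsa-miR-221 differed by 0.14 and 0.38 in Saos-2 and by -0.11 and 0.90 in Sa/CD99, and hsa-miR-222 by 0.15, 0.11, 0.49 and 1.18, so that 7 of these 8 values had the other sign than in the value table. At the 75th percentile as filed only 4 of the 8 did, while hsa-miR-221 kept it at -0.18, -0.13 and -0.12 and hsa-miR-222 at -0.07 in Saos-2 at day 7. None of these values was called.

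**Figure D5:**
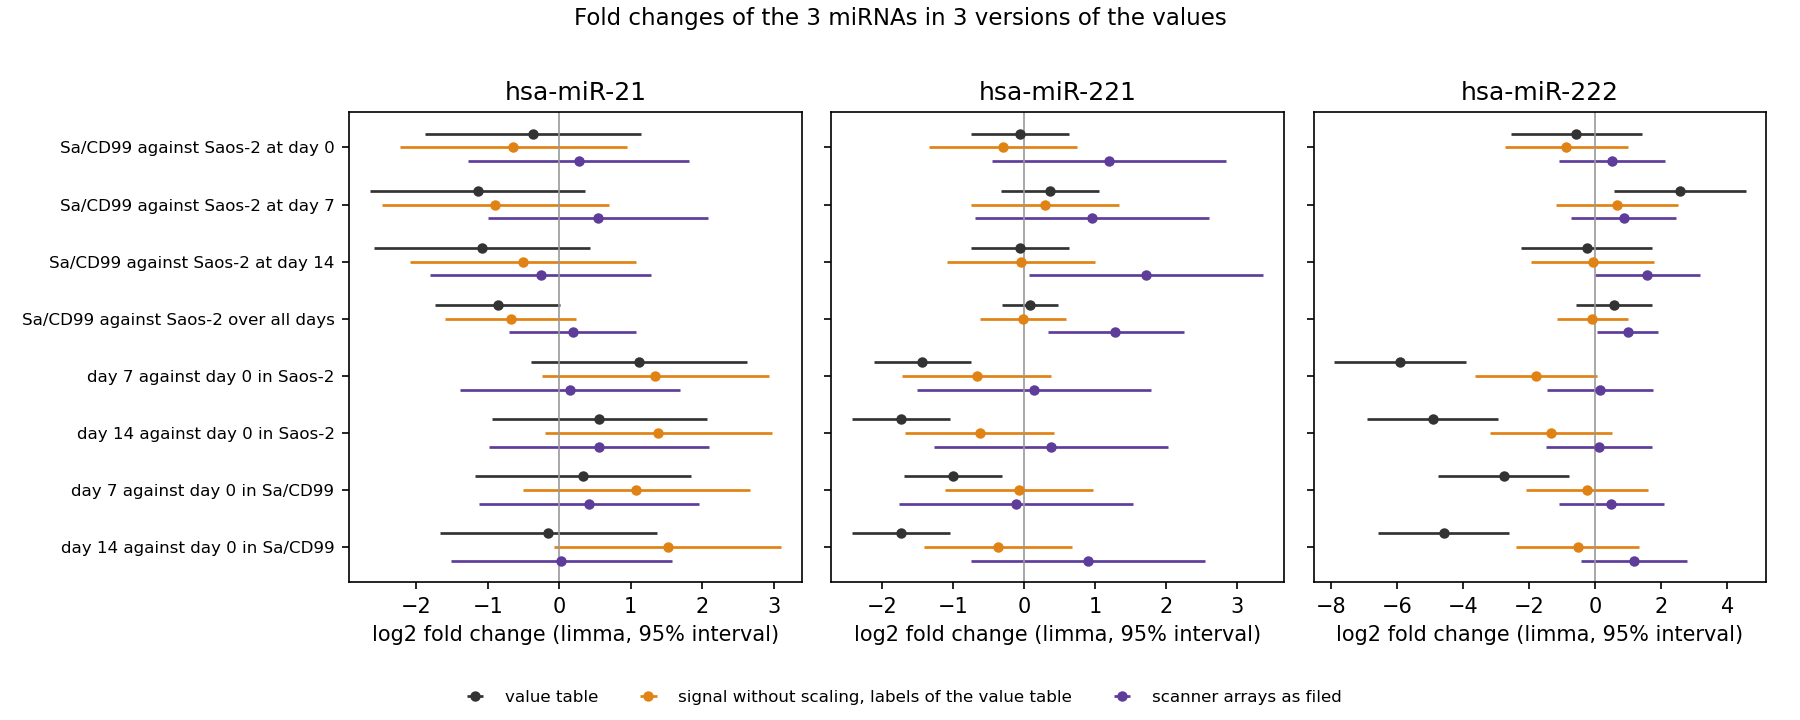
Log2 fold change (x axis) with its 95% limma interval for each miRNA in the 8 comparisons, from the value table, from the total gene signal without scaling under the same labels, and from the scanner arrays as filed. In the value table the 4 changes of hsa-miR-221 over days lie between -1.73 and -1.0 with intervals below 0, and in the other versions their intervals cross 0.

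The third question was whether the cell types differed in their course. The interaction of cell type and day was called for 0 of the 3 members, against 4 of 219 (1.83%), with limma adjusted p of 0.958 for hsa-miR-21, 0.944 for hsa-miR-221 and 0.469 for hsa-miR-222. Without Saos-2 replicate 2 of day 7, with the undetected array alone in its group, the limma adjusted p of hsa-miR-222 was 0.00968, and without replicate 1 it was 0.276. As filed, the interaction was called for 0 of 213 miRNAs (0%), with 0 at an unadjusted limma p of at most 0.05.

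The members of the shared hairpin locus were also set against each other within each array, where only the change of the difference between arrays has a meaning. The log2 value of hsa-miR-221 minus that of hsa-miR-222 was 2.85 and 2.42 in Saos-2 and 3.05 and 3.26 in Sa/CD99 at day 0. At day 7 it was 8.79 and 5.46 in Saos-2, the former with hsa-miR-222 undetected, and 4.70 and 5.16 in Sa/CD99. At day 14 it was 6.24 and 5.40, and 5.85 and 6.19. Day 0 thus stood below the later days in the table, while the cell types overlapped at day 14. After RMA of the scanner signals under the same labels this turned in Sa/CD99, with 4.21 and 4.65 at day 0 above 3.30 to 4.10 later, and in Saos-2 the days overlapped, with 3.84 and 3.23 at day 0 and 3.39 to 4.21 later, the highest on the array with hsa-miR-222 undetected.

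Over all days the difference was -0.49 in Sa/CD99 against Saos-2 (exact two-sided permutation test within days, p = 0.731). It turned to 0.06 without the undetected array, which is Saos-2 replicate 1 of day 7. After RMA it turned to 0.27 under the same labels (exact p = 0.287) and to 0.31 as filed (exact p = 0.278). On the log2 of the unscaled signal it turned to 0.08 under the same labels (exact p = 0.824). As filed it kept its sign there, at -0.17 (exact p = 0.593). On that unscaled scale the difference is a ratio of signals. Under the table's labels it was 2.76 to 3.72 at day 0 and 3.33 to 4.15 later on the arrays that detected hsa-miR-222, so that the days overlapped.

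The miRNAs most like each member over the 12 arrays of the value table were named by Pearson correlation among those detected on all 12. For hsa-miR-221 these were hsa-miR-484 (r = 0.972), hsa-miR-99b (r = 0.954) and hsa-miR-92a (r = 0.954), and its correlation with hsa-miR-222 was 0.893. For hsa-miR-222 they were hsa-miR-324-3p (r = 0.897), hsa-miR-221 and hsa-miR-886-3p (r = 0.879). The arrays lie on 2 slides, detected 133 to 158 miRNAs at day 0 and 158 to 229 later, and fall into day 0 and later days, so that the values describe that split as much as anything within it.

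hsa-miR-21 had no such close companion. Its highest correlations were with hsa-miR-16 (r = 0.613), hsa-miR-20a (r = 0.58) and hsa-miR-26a (r = 0.568), and those with hsa-miR-221 and hsa-miR-222 were -0.299 and -0.222.

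Other miRNAs known as oncogenic, among them the miR-17-92 cluster, formed a list of 19, of which 12 were detected on all 12 arrays, hsa-miR-18a on 4, hsa-miR-155 on 3 and hsa-miR-183 on 5, and 15 were tested. In Sa/CD99 against Saos-2, 1 of 15 was called lower at day 0 and 0 were called at days 7 and 14. Among all 219, 5 were called lower at each day, and 1, 2 and 15 higher. List medians were -0.31, -0.18 and -0.82 where all 219 had 0.06, 0.02 and 0. The call of the list was hsa-miR-18a, for which no fold is given. At day 0 both replicates of Saos-2 detected it, and it was undetected on all 6 Sa/CD99 arrays. Only Saos-2 at day 0 brought it into the test, so that the filter favoured this direction and the call adds nothing to its detection. Over all days hsa-miR-18a was again the 1 call of the list, with the same limit, beside 1 higher and 5 lower of all 219. The list median was -0.44, where all 219 had 0.1. Without scaling, under the same labels, 0 of the list were called at day 0 and over all days, and 1 was called higher at day 14, as after centring. As filed, 0 of 15 were called at each day, and the list medians turned to 0.95, 1.04 and 0.73, while over all days 4 of 15 were called higher and 0 lower, beside 40 higher and 53 lower of all 213.

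Over the days, 4 of the 15 were lower in Saos-2 at day 7 and 4 at day 14, and 3 and 9 were lower in Sa/CD99, with 1 higher there at day 14, beside 33, 59, 24 and 82 lower of all 219. List medians were -0.97, -1.13, -0.79 and -1.23, and turned to 0, 0.26, 0.14 and 0.21 without scaling and to 0.25, 0.79, 0.21 and 0.72 as filed. The count of 9 lower became 3 after centring, 2 without scaling and 0 as filed, where that of all miRNAs went from 82 to 32, 12 and 0. hsa-miR-183 was called lower in all 4 comparisons, being detected on the 4 arrays of day 0 and later on 1, Saos-2 replicate 2 of day 7. Only the day 0 groups brought it into the test, so that these calls restate its detection. hsa-miR-210, known for its response to low oxygen, changed by -3.15 and -3.34 in Saos-2 and by -3.34 and -4.00 in Sa/CD99 at days 7 and 14 (each ± 0.39, limma adjusted p from 5.48e-05 to 0.000322), and as filed differed by 0.25, 0.17, -0.23 and 1.62, not called. hsa-miR-18a was called lower in Saos-2 at days 7 and 14, with 1 of 2 arrays detecting it at each. Only Saos-2 at day 0 brought it into the test, so that the filter favoured this direction. In Sa/CD99 at day 14 hsa-miR-27a fell by 4.03 ± 1.41 (limma adjusted p = 0.0305). hsa-miR-155, known for its role in lymphoid tumours, was called higher in Sa/CD99 at day 14, where both arrays detected it and neither of day 0 did. Only Sa/CD99 at day 14 brought it into the test, so that the call restates its detection. No fold is given for hsa-miR-155, hsa-miR-183 or hsa-miR-18a.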

How the data were processed

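Members and lists were chosen with earlier results of these data known. Per the file headers, spots were quantified with Feature Extraction 10.7.3.1 as intensity values, from which the probe and total gene signals were taken, and the deposited files carry 0 or 1 flags, an other kind of value, for detection, saturation and spots well above background. For the deposited log2 values the methods name a log2 transformation and an adaptation of RMA for miRNA arrays, without stating centring. In each column the detected values followed the rank of the total gene signal (Spearman 1.0), and values from RMA run here on the spot medians differed from them, so that the steps behind the table are not settled. Column medians lay at the column minimum, since most miRNAs were undetected. Each array had 15739 spots, 15024 of them no controls, and 0 saturated.

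Each table column was set against all arrays by its detected names and by rank. limma 3.58.1 in R 4.3.3 was fitted to the 6 groups over every miRNA that 1 or more groups detected in both replicates, 219 in the table and 213 as filed, with Benjamini-Hochberg adjustment, after a test on simulated data. The text names the members, their other arms, miRNAs with the same seed, the 3 most correlated miRNAs of each, and from the oncogenic list those with the highest or lowest fold changes of a comparison. Clone numbers pair the Sa/CD99 arrays, and deviations from group means correlated at 0.0338, 0.184 and 0.0718 between days 0 and 7, 0 and 14, and 7 and 14 for the clones, and at 0.182, 0.18 and 0.203 for the Saos-2 numbers. The alternatives were the arrays as filed and relabelled after RMA, scaling to the 75th percentile, centring, renewed quantile normalization, other filters, 1 day alone, the replicate block and leaving out each array. Added after seeing the data were the unscaled signal, the 75th percentile relabelled, the total without hsa-miR-923, slide as a block and, for the difference between hsa-miR-221 and hsa-miR-222, leaving out each array.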

Additional observations from a re-analysis of the deposited data

How the results depend on the processing

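Values are log2 differences of Sa/CD99 against Saos-2 unless a day change is named. Of the alternatives chosen first, 314 values kept direction and side of the threshold, 37 turned, 18 lost and 5 gained a call, and of those added after seeing the data 98, 25, 14 and none. For those that changed the cause was not tested. Arrays as filed: miR-221 minus miR-222 0.31; miR-21 0.27 (day 0), 0.54 (day 7), 0.19 (all days), 0.03 (Sa/CD99 day 14); miR-221 1.20 (day 0), 1.72 (day 14), 1.29 (all days), then 0.14 and 0.38 over days in Saos-2 and -0.11 and 0.90 in Sa/CD99; miR-222 0.52 (day 0), 1.58 (day 14), then 0.15, 0.11, 0.49 and 1.18. Relabelled after RMA, the difference was 0.27 and miR-222 was 0.04 (day 14), -0.20 (all days) and -0.84 (Sa/CD99 day 7). At the 75th percentile as filed, miR-221 was 0.36 (day 0), 1.0 (day 14), then -0.18, -0.13, -0.12 and 0.51, miR-21 0.18 (day 7), -0.28 and -0.22 (Saos-2), and miR-222 1.40 (day 14), then -0.07, 0.16, 1.29 and 2.02. At that percentile relabelled, miR-221 was 0.08 (day 0), 0.20 (day 14) and -0.69 (Sa/CD99 day 7), miR-222 0.17 (day 14), -1.84 (Saos-2 day 14), -0.87 and -1.18 (Sa/CD99), and miR-21 0.87 (Sa/CD99 day 14). Unscaled and relabelled, the difference was 0.08, miR-221 -0.01 over all days, then -0.66, -0.62, -0.07 and -0.37, miR-222 -0.10, then -1.79, -1.34, -0.25 and -0.53, and miR-21 1.52 (Sa/CD99 day 14). Unscaled as filed, miR-221 was 0.09 (day 0), 0.31 (day 14), then 0.33, 0.55, 0.52 and 0.77, miR-21 0.05 (day 7), and miR-222 0.70 (day 14), then 0.44, 0.85, 1.47 and 1.82. Centring gave miR-221 0.33 (day 14), -0.93 (Saos-2 day 7), -0.53 and -0.61 (Sa/CD99), miR-222 0.13 (day 14) and -2.30 (Sa/CD99 day 7), and miR-21 0.97 (Sa/CD99 day 14). Renewed quantile normalization gave miR-222 2.21 at day 7, now called. With slide as a block miR-221 was -0.06 and miR-222 -0.41, on days 0 and 14 alone, and miR-21 was 0.63 at Sa/CD99 day 14. Scaled to the total without miR-923, Sa/CD99 day 7 was -0.76 for miR-221 and -0.94 for miR-222, and Sa/CD99 day 14 was 0.13 for miR-21. Leaving out 1 array, where the array left alone in its group is assumed to vary like the others, and where the ends of 4.08, 1.08, -1.05 and 0.00968 rest on the undetected array alone, gave ranges of -1.05 to 0.06 for the difference, -0.12 to 0.01 (miR-221, day 0), 1.05 to 4.08 (miR-222, day 7), -0.12 to 0.02 (miR-221, day 14), -0.69 to 0.18 (miR-222, day 14), 0.07 to 1.08 (miR-222, all days), -0.23 to 1.36 (miR-21, Saos-2 day 14), -0.13 to 0.79 (miR-21, Sa/CD99 day 7), -1.20 to -0.81 (miR-221, Sa/CD99 day 7) and -2.82 to -2.72 (miR-222, Sa/CD99 day 7), and interaction limma adjusted p of 0.00968 to 0.772 for miR-222. The replicate block changed no member's call, with miR-221 at -1.0 in Sa/CD99 at day 7 (limma adjusted p = 0.0268), and 3 calls in place of 6 over all days. Calls by limma at days 0, 7, 14 and over all days were 6, 7, 20 and 6 in the table. Among miRNAs detected on all 12 arrays they were 0, 0, 7 and 0. Relabelled they were 11, 4, 11 and 2 after RMA, and 2, 3, 11 and 0 unscaled. As filed they were 12, 1, 7 and 61 at the 75th percentile, and 3, 0, 8 and 54 unscaled. The 75th percentile relabelled gave 2 over all days. With slide as a block the cell type term, resting on days 0 and 14, gave 2. Day changes, 80, 122, 70 and 163, were 39, 64, 31 and 82 on the first of these filters and 700, 727, 688 and 760 without a filter, where values at the column minimum are tested too, 72 and 99 at day 14 unscaled and relabelled, and 0 as filed under each scaling. Interaction calls, 4 in the table, were 0 on the first filter, unscaled and as filed. Leaving out 1 array moved counts by over 1.5 times to 10 to 14 at day 0, 25 at day 7 (without Saos-2 replicate 1), 7 to 31 at day 14, 3 to 20 over all days, 65 to 80 for Saos-2 at day 14, 44 for Sa/CD99 at day 7 (without clone 36 of day 7) and 2 to 24 for the interaction. hsa-miR-222 had no value on that filter, being undetected on 1 array, and its signal near background limits its precision.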
